A study of Mus musculus with 30 samples.

Results

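Wild-type (WT) cells of the mouse dendritic cell line DC3.2 were compared after 2 h with interferon alpha (IFNα, 5000 U/mL) and after 2 h in media alone, with 2 RNA sequencing libraries in each group. These 4 libraries were chosen by their labels among the 30 of the study, which also holds IRF1 knockout, IRF2 knockout and IRF1/IRF2 double knockout lines, interferon gamma (IFNγ) and single libraries without replicates. The WT cells carry no guide RNA according to their column names, and the labels describe no non-targeting guide control. WT cells kept for 2 h with IFNγ at 2 ng/mL (2 libraries) serve below to show where the IFNα response differs, and a separate pair of WT libraries, 1 at 0 h and 1 after 2 h with IFNα, serves as a second look at it. The comparison asks which transcripts change when unedited cells meet a type I interferon.

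IFNα is a type I interferon, a secreted antiviral protein. It binds the receptor formed by IFNAR1 and IFNAR2, whose kinases TYK2 and JAK1 pass the signal on. STAT2 and IRF9 are parts of the complex ISGF3, which binds interferon-stimulated response elements (ISREs) near antiviral genes. IFNγ signals through its own receptor to genes with GAS elements, and the transcription factor IRF1 carries part of that response further. Dendritic cells respond to both interferons and present antigen to T cells.

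All values are TPM, a share of the library corrected for transcript length. TPM gives no number of reads, and the depth behind a value is therefore unknown. The 4 libraries held between 10980 and 11045 genes at 1 TPM or more, and the correlation between replicates was r = 0.9953 in media and 0.9932 with IFNα, across genes, which are not independent replicates. A difference below is that of the group means of log2(TPM + 1), IFNα minus media, with its SE, so that 1 stands for about a 2-fold change in a gene well above 1 TPM and for more than that in a gene near 0. A gene was called at a Benjamini-Hochberg adjusted p under 0.05 in limma over 11842 genes, and "rose" is written only of called genes. Nothing in the labels says that the 2 libraries of a group come from separate cultures. The p-values and SEs therefore measure only a scatter between libraries, which may be technical. It was estimated over all 12 groups of 2 replicated libraries, knockout lines included, and not from the compared groups alone. List counts are over the members that passed a filter of 1 TPM in 2 of the 24 replicated libraries. A gene silent in WT media passed it only through other libraries, of treated cells or of knockout lines, so list counts and medians are descriptions. In bulk RNA, more responding cells and more RNA per cell cannot be told apart.

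The line expressed part of the dendritic cell markers. Cd74 stood at 3623 to 4270 TPM in the 4 libraries, H2-Aa at 368 to 487, Itgax at 52.2 to 66.0, and Sirpa, Id2, Batf3 and Irf8 were above 43 TPM in each. Flt3, Dpp4 and Bcl11a were listed at 0, and Xcr1, Clec9a, Itgae and Ccr7 stayed under 0.5 TPM. Macrophage and monocyte markers were high as well, with Lyz2 at 1581 to 1906 TPM and Csf1r at 215 to 330. Of that list 1 of 16 tested genes rose (Fcgr1), of the dendritic cell list 0 of 11, and the summed level of the macrophage list was 4281 and 4538 TPM in media and 4083 and 4165 with IFNα. Lymphocyte, fibroblast and granulocyte markers summed to at most 14.5 TPM per list and library, and none of those tested was called. Of the plasmacytoid dendritic cell markers 0 of 6 rose, or 1 (Bst2) in a fit with a term for the replicate number, called the block below.

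Promoter sequences are shown first, since the element that ISGF3 binds is known by its letters. They are those of the 4 named genes with the largest differences whose RefSeq promoter holds the core GAAANNGAAA on either strand, where N is any base (RefSeq, GRCm38.p6). Each is the 250 bases before the start site, written 5′ to 3′ in the direction of the gene, and capitals mark the core.
Tgtp2: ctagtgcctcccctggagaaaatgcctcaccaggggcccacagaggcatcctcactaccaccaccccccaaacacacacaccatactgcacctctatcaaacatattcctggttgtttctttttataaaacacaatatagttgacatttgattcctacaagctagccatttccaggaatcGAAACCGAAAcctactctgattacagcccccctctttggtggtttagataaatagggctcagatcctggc
Ifit1: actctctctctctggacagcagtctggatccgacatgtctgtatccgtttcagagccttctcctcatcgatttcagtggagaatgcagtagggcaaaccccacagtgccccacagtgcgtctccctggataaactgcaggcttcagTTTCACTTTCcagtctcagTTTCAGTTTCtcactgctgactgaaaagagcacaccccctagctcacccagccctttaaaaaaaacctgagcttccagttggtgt
Ifit3: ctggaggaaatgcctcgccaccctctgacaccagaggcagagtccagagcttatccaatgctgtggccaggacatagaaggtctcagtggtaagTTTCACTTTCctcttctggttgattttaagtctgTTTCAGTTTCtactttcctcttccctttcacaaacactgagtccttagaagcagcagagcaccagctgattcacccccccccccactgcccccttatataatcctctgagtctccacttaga
Gm12250: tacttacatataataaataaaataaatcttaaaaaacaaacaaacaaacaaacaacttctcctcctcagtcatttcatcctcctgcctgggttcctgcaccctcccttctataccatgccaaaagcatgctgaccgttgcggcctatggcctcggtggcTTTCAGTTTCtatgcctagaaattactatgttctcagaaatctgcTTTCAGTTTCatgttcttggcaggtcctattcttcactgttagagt

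The Tgtp2 promoter (chr11:49064213-49064462, minus strand) holds 1 core, which starts 70 bases before the start site. The Ifit1 promoter (chr19:34640639-34640888, plus strand) and the Ifit3 promoter (chr19:34583279-34583528, plus strand) hold 2 each, the first of them 104 and 156 bases before the start. The Gm12250 promoter (chr11:58183593-58183842, plus strand) holds 2, the first 91 bases before it. A match is a description of letters and not a measured binding site.

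After 2 h of IFNα, 123 of the 11842 genes tested had risen (percent called 1.04%) and 0 had fallen (0.0%). The response was steep for a few genes and modest for most. The called differences ran from 0.51 to 5.99 with a median of 1.62, while the median over all genes tested was −0.06. Of the called genes 23 differed by less than 1, 49 by 1 to 2, 24 by 2 to 3, 18 by 3 to 4 and 9 by 4 or more. Together the called genes made up 1629 and 1590 TPM in the media libraries and 5513 and 5285 TPM with IFNα, which is 0.163% and 0.159% of the transcripts before and 0.551% and 0.528% after. In every called gene both IFNα libraries lay above both media libraries, against 9.31% of all genes tested with that order and 18.9% with the reverse order. With the block, 163 genes rose (1.38%) and 4 fell (0.0338%). At an unadjusted p under 0.05, 303 genes were higher and 254 lower.

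**Figure D1:**
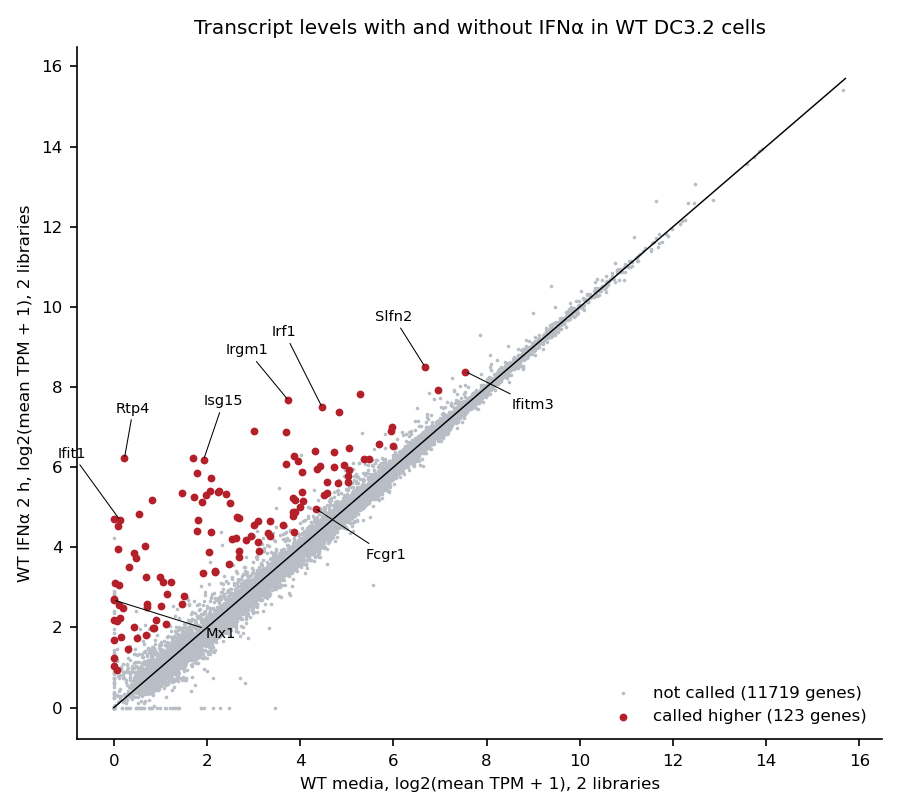
Mean level of each of the 11842 genes tested in WT cells with IFNα (y axis) against media (x axis), both as log2(mean TPM + 1) of 2 libraries, with the 123 called genes in red, the other genes in grey and the line of equal levels in black. The red points are spread over the low and middle levels of the media axis and all lie above the line, and few of them stand at its right end.

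The plot of levels with and without IFNα shows that most called genes were silent or low in media. Among tested genes with a media mean under 1 TPM, 36 of 818 rose (4.40%), with a median difference of 2.23. From 1 to 10 TPM, 44 of 3625 rose (1.21%, median 1.76), and from 10 to 100 TPM 40 of 5587 (0.716%, median 1.08). At 100 TPM or more 3 of 1812 rose (0.166%), and these were Slfn2, Ifitm3 and Atf3. Genes with a media mean under 1 TPM entered the test only where other libraries reached that level.

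Stat2 and Irf9, which encode parts of ISGF3, rose, while the genes of the receptor and its kinases were not called. The receptor chain gene Ifnar1 had 53.7 and 41.4 TPM in media and 43.0 and 35.3 with IFNα (difference −0.27 ± 0.23), and Ifnar2 had 83.3 and 88.1 against 82.2 and 80.4 (−0.07 ± 0.12). The differences of the kinase genes were −0.09 ± 0.15 for Jak1 and −0.25 ± 0.18 for Tyk2. Stat2 rose from 4.96 and 4.28 to 33.6 and 32.9 (2.61 ± 0.26) and Irf9 from 2.29 and 2.72 to 23.3 and 25.7 (2.86 ± 0.14). The groups of both genes lie far apart compared with the gap between replicates. Stat3, which other cytokines use more, rose from 60.8 and 61.3 TPM to 109 and 127 (0.94 ± 0.13). Of the receptor and ISGF3 list 4 of 11 tested genes rose, while the list median was −0.07.

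Of the interferon regulatory factors, the transcription factor family that binds the same kind of element, 3 of 8 tested genes rose. Irf7, which drives type I interferon genes in infected cells, rose from 0.57 and 0.96 TPM to 35.9 and 34.3 (4.36 ± 0.21, adjusted p = 1.9e-09). Irf1 rose from 19.7 and 22.5 TPM to 194 and 166 (3.03 ± 0.17), the highest IFNα level of a called gene in this list, and Irf9 is the other one. Irf2, best known as an antagonist of IRF1 on shared sites, stood at 23.4 and 25.2 TPM in media and at 42.1 and 30.5 with IFNα. Its groups did not overlap, but the difference of 0.54 ± 0.14 missed the threshold (adjusted p = 0.106). Irf8, a factor that shapes dendritic cells, had 57.0 and 48.5 TPM in media and 74.1 and 72.8 with IFNα (0.48 ± 0.14, not called).

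Of 12 tested negative regulators of interferon signalling 1 rose, with a list median of −0.02. It was Usp18, which encodes the enzyme that strips ISG15 from proteins and blocks signalling at IFNAR2. It stood at 2.63 and 1.87 TPM in media and at 80.4 and 68.0 with IFNα (4.54 ± 0.22). Socs1, an inhibitor of JAK kinases, had 3.58 and 17.8 TPM in media and 72.9 and 13.8 with IFNα. The second IFNα library lies below the second media library, so the groups overlap and the difference of 1.83 ± 0.89 was not called. Socs3 was called only with the replicate block, and it had 67.0 and 44.2 TPM in media and 96.2 and 81.8 with IFNα. The type I and III interferon genes gave no signal, with all 19 listed at 0 in the 4 libraries, Ifnb1 among them.

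**Figure D2:**
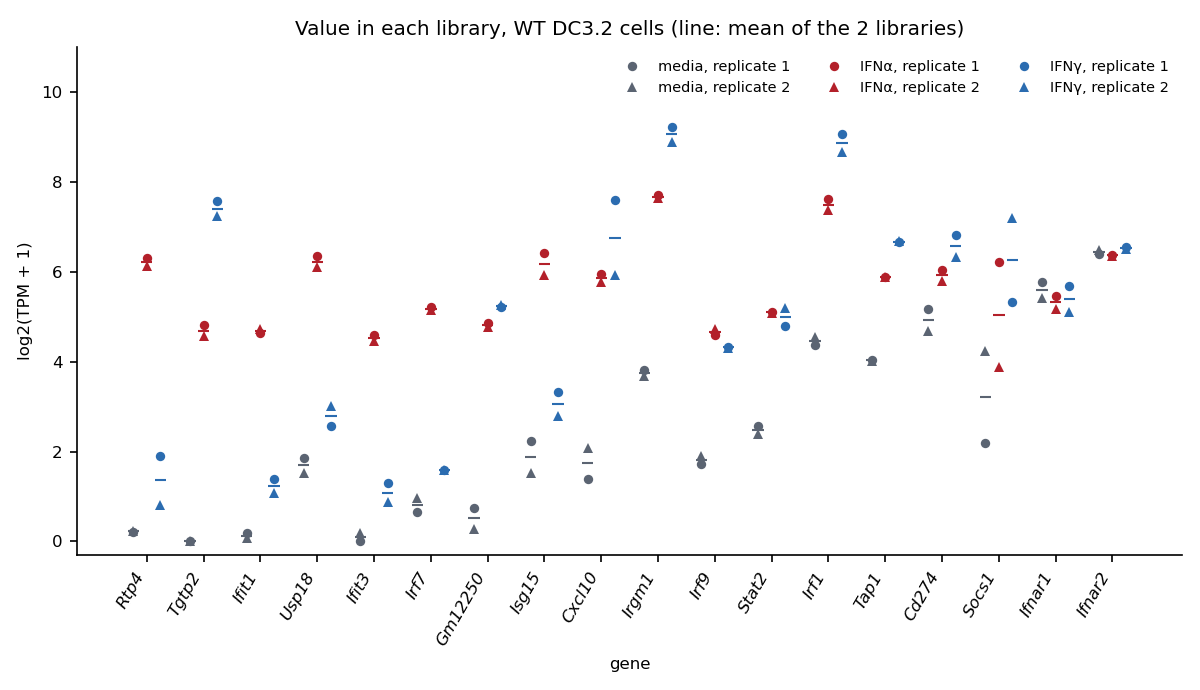
log2(TPM + 1) of 18 named genes (x axis) in each WT library kept in media (grey), with IFNα (red) or with IFNγ (blue), with circles for replicate 1, triangles for replicate 2 and a short line at the mean of the 2. The 2 replicates of most genes lie close together, while those of Socs1 spread so far that media and IFNα overlap, and Ifnar1 and Ifnar2 stay level.

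The IFIT family are proteins that recognise the ends of foreign RNA and block its translation. All 5 tested genes rose, with a median difference of 2.92, and all 5 were past 2-fold in the separate single pair. A further member, 2010002M12Rik (Ifit1bl2), stayed at 0.17 TPM or less and was not tested. Ifit1 stood at 0.14 and 0.05 TPM in media and at 23.8 and 25.5 with IFNα (4.55 ± 0.23), and Ifit3 at 0 and 0.14 against 23.3 and 21 (4.44 ± 0.24). Ifit2 had the highest level with IFNα, 41.5 and 37.1 TPM, from 4.11 and 4.55 in media. Gm14446, which RefSeq lists as Ifit1bl1, went from 0.15 and 0 to 4.61 and 5.14 TPM. In each of these genes media and IFNα libraries were separated by several times the level in media.

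Of the OAS list, genes of the 2′-5′ oligoadenylate system against viral RNA, 7 of 9 tested genes rose (median 1.52). Oasl1 and Oasl2, OAS-like genes, rose by 3.19 ± 0.16 and 3.42 ± 0.16, from under 0.4 TPM in each media library to 9.32 or more with IFNα. Oas2 went from 0.33 and 0.85 TPM to 14.8 and 16.1, and Oas3 had the highest level with IFNα, 22.1 and 29.1 TPM from 5.70 and 5.10.

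ISG15 is a ubiquitin-like protein that is attached to other proteins during the interferon response. Isg15 rose from 3.72 and 1.88 TPM to 84.0 and 59.9 (4.29 ± 0.38), and with Usp18 and Ube2l6, its E2 conjugating enzyme, 3 of 6 tested genes of the pathway rose (median 1.12). Ube2l6 had 10.9 and 7.40 TPM in media and 27.2 and 21.6 with IFNα (1.33 ± 0.30, adjusted p = 0.0413). Its call was lost on leaving out any 1 of the 4 libraries, with adjusted p = 0.434 and 0.117 without IFNα replicate 1 or 2 and 0.0633 and 0.625 without media replicate 1 or 2.

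Among antiviral restriction factors, proteins that stop single steps of viral growth, 8 of 17 tested genes rose (9 with the block), with a median of 0.78. Rtp4, an interferon-induced zinc finger protein, had the largest difference of all genes, with 0.16 and 0.18 TPM in media and 77.7 and 69.4 with IFNα (5.99 ± 0.25). The dynamin-like genes Mx1 and Mx2 were listed at 0 in both media libraries and reached 6.54 and 4.32 TPM and 5.86 and 5.24 TPM. Rsad2, which encodes viperin, went from 0 and 0 to 2.35 and 2.12 TPM, and its neighbour Cmpk2, a nucleotide kinase, from 0.04 and 0.09 to 13.6 and 15.2. For genes at 0 in media the difference depends on the pseudocount, and the call of Rsad2 was lost at a pseudocount of 5. Ifitm3, which hinders the entry of enveloped viruses, had the highest IFNα level of the called genes here, 155 and 217 TPM in media and 332 and 335 with IFNα (0.86 ± 0.18). Its call was lost without IFNα replicate 1 (adjusted p = 0.173), IFNα replicate 2 (0.18) or media replicate 1 (0.521). Bst2, the virus tether tetherin, had 142 and 140 TPM against 186 and 209, which missed the threshold (0.48 ± 0.11, adjusted p = 0.0509) but passed it under the block.

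Of the Schlafen family, 4 of 8 tested genes rose, 6 with the block (median 1.06). Slfn8 rose from 3.13 and 3.24 TPM to 40.8 and 42.1 (3.34 ± 0.16) and Slfn3 by 1.02 ± 0.15. Slfn2 was the most abundant of all 123 called genes with IFNα, at 397 and 329 TPM, but it had 124 and 78.3 TPM already in media (1.86 ± 0.34). Its call was lost without IFNα replicate 1 (adjusted p = 0.108) or media replicate 2 (0.185).

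Among the interferon-inducible GTPases, 2 families attack the vacuoles of intracellular bacteria and parasites, and both responded. Of the immunity-related GTPases (IRGs) 11 of 12 tested genes rose, with the highest median of the lists tested, 3.28. Tgtp2 was listed at 0 in both media libraries and reached 27.2 and 22.7 TPM, and Gm12250 went from 0.68 and 0.21 to 28.2 and 26.5. Irgm1, a regulator of the other IRGs, was already expressed in media at 13.03 and 11.75 TPM and rose to 209 and 197, a 16.4-fold ratio of means with a difference of 3.93 ± 0.13. Ifi47 rose from 2.96 and 2.93 TPM to 38.8 and 37.7. Tgtp1 and Tgtp2 are close copies, and how their reads were shared depends on the RSEM estimate. Of the guanylate-binding proteins 7 of 10 rose (median 1.76), with Gbp2 at 4.48 and 0.92 TPM in media and 34.8 and 33.7 with IFNα, Gbp4 at 0.70 and 0.52 against 7.96 and 9.21, and Gbp7 at 13.6 and 13.9 against 33.5 and 37.7.

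Genes that sense foreign nucleic acid responded in part. Of the RNA and DNA sensors and adaptors 5 of 19 rose, 6 with the block, and the median was 0.22. The 3 RNA sensors of the RIG-I family were among them, with Ddx58 (RIG-I itself) from 1.86 and 2.98 TPM to 19.6 and 20.7 (2.65 ± 0.19), Dhx58 from 2.85 and 3.40 to 14.96 and 12.32, and Ifih1 (MDA5) from 3.66 and 3.32 to 8.83 and 10.1. The other 2 were Tlr3 and Nod1. Of the PYHIN family, DNA-binding proteins of the nucleus and cytosol, 7 of 8 tested genes rose (median 2.29). AI607873, which RefSeq lists as Ifi207, had the smallest SE of the called PYHIN genes, with 38.1 and 37.6 TPM in media and 229 and 225 with IFNα (2.56 ± 0.11), Ifi203 went from 10.5 and 13.4 to 75.5 and 58.9 and Mndal from 14.3 and 14.7 to 70.4 and 69.6. Aim2, the DNA sensor of the inflammasome, was tested and not called. Of the sensors, Zbp1 and Ddx60 stayed at 0.30 TPM or less in the 4 libraries and were not tested.

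Regulators of protein modification and of nuclear bodies made up a further part of the response. Of the PARP family and Dtx3l 4 of 12 genes rose, 6 with the block (median 0.70). Parp14 rose from 4.0 and 3.46 TPM to 38.8 and 42.7 (3.14 ± 0.20), while Parp9 and its ubiquitin ligase partner Dtx3l rose by 1.61 ± 0.15 and 1.65 ± 0.16. Of the nuclear body and TRIM genes 9 of 15 rose (median 1.06), among them Trim34a at 1.18 and 0.80 TPM in media and 7.82 and 9.46 with IFNα, and Daxx, a histone chaperone of PML bodies, at 25.96 and 24.56 against 68.99 and 58.42. Of 31 further interferon-stimulated genes 11 rose, 16 with the block, with Ly6a at 3.09 and 4.48 TPM in media and 34.9 and 48.5 with IFNα, Trafd1 at 22.4 and 16.6 against 66.6 and 55.5 and Phf11d at 14.5 and 12.1 against 36.5 and 36.8. Their median was 0.80. Znfx1, an RNA helicase gene, rose by 1.42 ± 0.25, and its call was lost without IFNα replicate 2 (adjusted p = 0.101), media replicate 1 (0.0632) or media replicate 2 (0.0533).

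**Figure D3:**
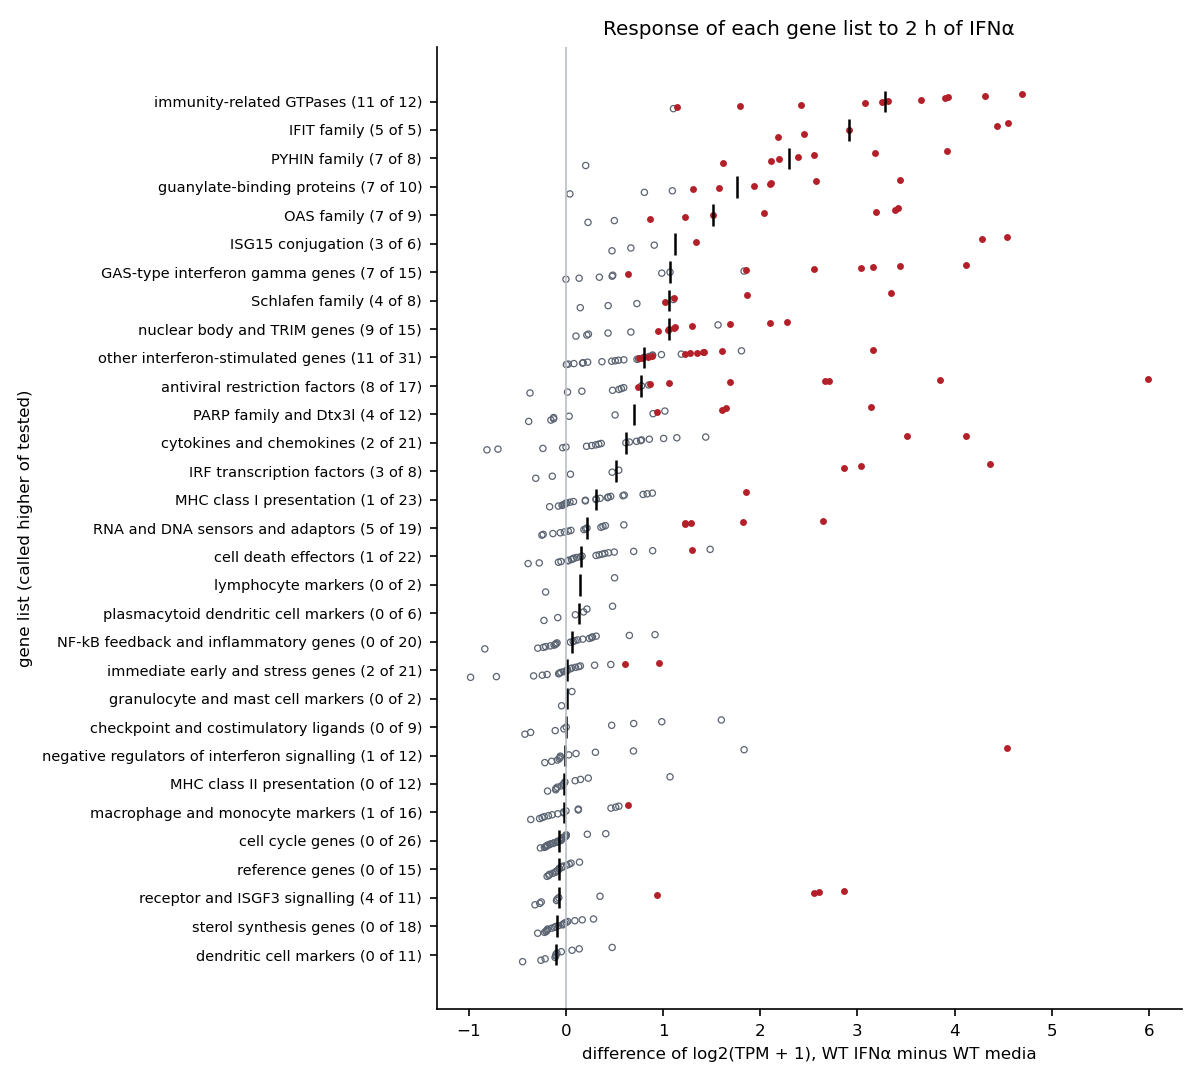
Difference of log2(TPM + 1), IFNα minus media (x axis), of each tested gene in 31 gene lists (y axis, ordered by median, with the number called higher of those tested), with called genes in red, other genes as open circles and the median as a black bar. The IRG, IFIT and PYHIN lists lie almost wholly to the right, while the cell cycle, reference and sterol synthesis lists are narrow and centred near 0.

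Most tested genes of antigen presentation were not called at 2 h, as holds for all genes tested. Of MHC class I presentation 1 of 23 tested genes rose, 3 with the block, and the median was 0.31. Of all genes tested 1.04% rose, or 1.38% with the block. The class I presentation gene that rose was Tap1, a subunit of the peptide transporter, with 15.5 and 15.3 TPM in media and 57.8 and 58.5 with IFNα (1.85 ± 0.17). Of the heavy chain genes, H2-K1 had 237 and 236 TPM in media and 239 and 234 with IFNα, and H2-D1 had 932 and 961 against 926 and 952. The immunoproteasome gene Psmb9 had 31.9 and 32.1 TPM against 65.5 and 55.0 (0.89 ± 0.22, adjusted p = 0.101), and Nlrc5, the transactivator of class I genes, had 10.9 and 12.2 against 17.5 and 25.9 (0.84 ± 0.27, adjusted p = 0.392), with a call only under the block. In the list 12 of 23 genes had both IFNα libraries above both media libraries, against 9.31% of all genes. Of MHC class II presentation 0 of 12 rose. For this list and the next, a count of 0 is no departure from the 1.04% of all genes, given their size. Of the checkpoint and costimulatory ligands 0 of 9 rose, 3 with the block, among them Cd274 (PD-L1), with 35.3 and 24.7 TPM in media and 64.4 and 54.9 with IFNα (0.99 ± 0.24, adjusted p = 0.0724).

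Of 21 tested cytokines and chemokines 2 rose, 5 with the block, with a median of 0.62. Both attract leukocytes. Cxcl10, which draws T cells, rose from 1.62 and 3.24 TPM to 60.4 and 53.4 (4.12 ± 0.58). Ccl12 rose from 2.00 and 2.54 TPM to 47.4 and 27.6 (3.51 ± 0.64), and its call was lost without IFNα replicate 1 (adjusted p = 0.125), media replicate 1 (0.0861) or media replicate 2 (0.0555). Of 22 cell death effectors only Daxx, already described, rose, and 3 were called with the block. Gsdmd, which encodes the pore protein of pyroptosis, had 33.7 and 28.5 TPM against 34.8 and 32.3 (0.11 ± 0.24).

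Several lists outside the interferon response served as a background. Of 20 NF-kB feedback and inflammatory genes, 18 sterol synthesis genes, 26 cell cycle genes and 15 reference genes, 0 rose and 0 fell, with medians of 0.06, −0.09, −0.07 and −0.07. Of all genes tested 1.04% rose and 0.0% fell, so counts of 0 in lists this small do not set them apart. Of 21 immediate early and stress genes 2 rose, Atf3, a stress-induced transcription factor, from 138 and 110 TPM to 247 and 234 (0.96 ± 0.22), and Gadd45b, a stress sensor, by 0.60 ± 0.12. Both calls depend on single libraries. Atf3 had adjusted p = 0.326 and 0.211 without IFNα replicate 1 or 2 and 0.0897 and 0.625 without media replicate 1 or 2, and Gadd45b had 0.252 and 0.0588 without IFNα replicate 1 or 2 and 0.38 without media replicate 2. Fcgr1, the high-affinity IgG receptor, rose from 20.1 and 18.2 TPM to 30.1 and 30.3 (0.64 ± 0.11), with adjusted p = 0.0743 without media replicate 2.

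Of the 123 called genes 30 stood in none of the lists under the symbol used in the deposited table. The 10 with the largest differences and at least 5 TPM with IFNα were Gm12185, Serpina3f, Trex1, Tmem140, mKIAA1554, BC002288, Fam26f, Gm18853, Arid5a and Rnf34. The symbols mKIAA1554 and BC002288 had no match in RefSeq, so either could be a listed gene under another name. Trex1, an exonuclease that clears DNA from the cytosol, had 20.8 and 17.3 TPM in media and 102 and 66.7 with IFNα (2.06 ± 0.28). Gm12185 went from 0.02 and 0.15 TPM to 7.39 and 7.17, and it lies among the IRG genes of chromosome 11. Fam26f rose by 1.54 ± 0.20, Rnf34, a ubiquitin ligase gene, by 1.34 ± 0.12 and Arid5a, which encodes an RNA-binding protein, by 1.35 ± 0.17. Serpina3f, a serine protease inhibitor gene, had 5.12 and 1.30 TPM against 23.7 and 16.1, and it lost its call without IFNα replicate 1 (adjusted p = 0.131) or media replicate 2 (0.215). Tmem140 lost it without IFNα replicate 1 (0.114), IFNα replicate 2 (0.0928) or media replicate 1 (0.213).

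No gene fell in the fit without the block. The 4 genes that fell with the block were Angptl4, Mast3, 1700017B05Rik and Rgs11. Angptl4, an inhibitor of lipoprotein lipase, had 18.7 and 18.4 TPM in media and 9.52 and 13.6 with IFNα (−0.66 ± 0.16), and its adjusted p of 0.0602 was the smallest of any lower gene without the block. Mast3, a kinase gene, had 30.2 and 35.0 TPM against 18.6 and 20.6. The media and IFNα libraries of Rgs11 overlap, at 9.61 and 18.9 against 5.87 and 13.5 TPM, but replicate 1 was lower than replicate 2 in both groups.

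The single pair of WT libraries was not used for these calls. An entry of the deposited table is a gene symbol with its transcripts, and of 8318 entries with at least 10 TPM in a replicated library 5067 were listed at 0 in every single library. Of 6809 entries with at least 10 TPM in a single library 3878 were listed at 0 in every replicated library; which transcripts each set was quantified on is not given in the sources used here. Levels are therefore not compared between the sets, and the pair has no replicate, so each of its values is a description. The control library of the pair is at 0 h and not after 2 h in media, so IFNα and 2 h of culture cannot be told apart there. Of the 123 called genes 118 had at least 1 TPM in a library of the pair, and all 118 were higher with IFNα than at 0 h. Of these, 99 were past 2-fold on the log2(TPM + 1) scale (83.9%, exact Clopper-Pearson 95% interval 76.0% to 90.0%, which treats genes as independent), against 175 of all 10371 genes (1.69%) higher and 35 (0.337%) lower. The median difference of the 118 genes was 2.00 in the single pair and 1.67 in the replicated libraries, and the differences correlated across these genes with r = 0.931.

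**Figure D4:**
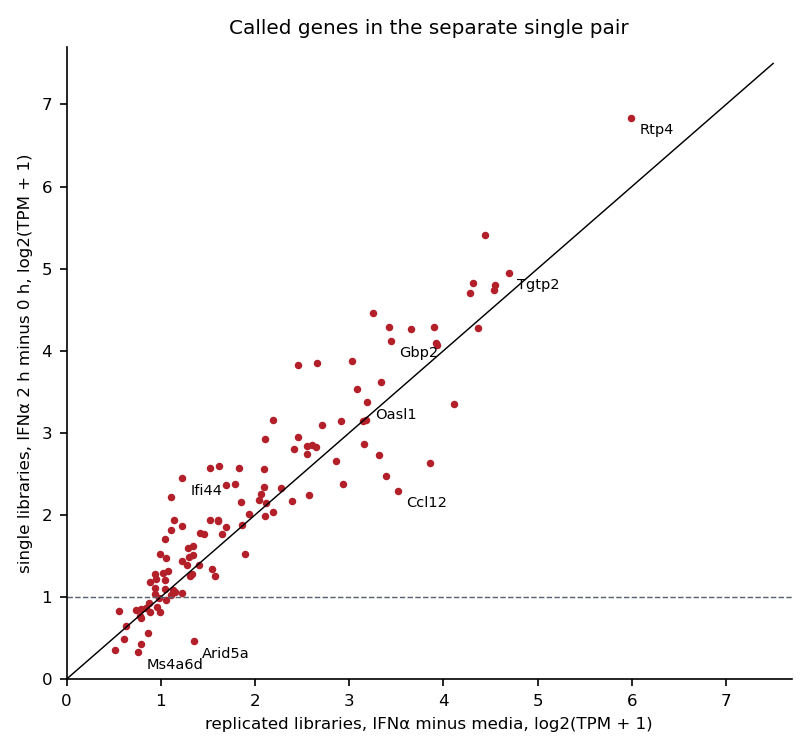
Difference of log2(TPM + 1) in the single pair, IFNα at 2 h minus 0 h (y axis), against that in the replicated WT libraries, IFNα minus media (x axis), for the 118 called genes measured in the pair, with the line of equal differences and a dashed line at 2-fold. The points follow the line over its whole length, all lie above 0, and those under the dashed line have small differences on both axes, apart from Arid5a.

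The plot of both experiments places Rtp4 at the top of each, at 0.53 and 174 TPM in the single pair. Ifit3 had 0.41 and 58.9 TPM and Irf7 2.36 and 63.9. Arid5a had 22.9 TPM in the single 0 h library and 32.0 after IFNα. Of 169 tested genes that were past 2-fold higher in the pair, 99 were called in the replicated fit. Snora78 and Gm12338 had the largest differences in the pair among the others at 5 TPM or more there. In the replicated libraries they were not higher with IFNα (−1.89 and −0.30, not called). The uncalled genes named next were chosen after their values were seen. Ciita, the transactivator of MHC class II genes, had 12.7 and 7.56 TPM in media and 19.73 and 24.04 with IFNα (adjusted p = 0.0638), and 3.54 and 20.6 TPM in the single pair. Cd274 had 13.4 and 37.6 TPM there, Psmb9 32.3 and 71.4 and Nlrc5 4.53 and 11.9. Of MHC class I presentation 3 of 21 genes in the pair were past 2-fold, and of the IRGs 12 of 12.

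The response to IFNα was next set directly against that to IFNγ. The same IFNα libraries enter both comparisons, so the calls are not independent. Of all genes tested, 42 were higher with IFNα than with IFNγ (0.355%) and 49 lower (0.414%). With the replicate block these counts were 72 and 105. Of the 123 genes that rose with IFNα, 40 were higher than with IFNγ, 21 were lower and 62 were not called between them.

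**Figure D5:**
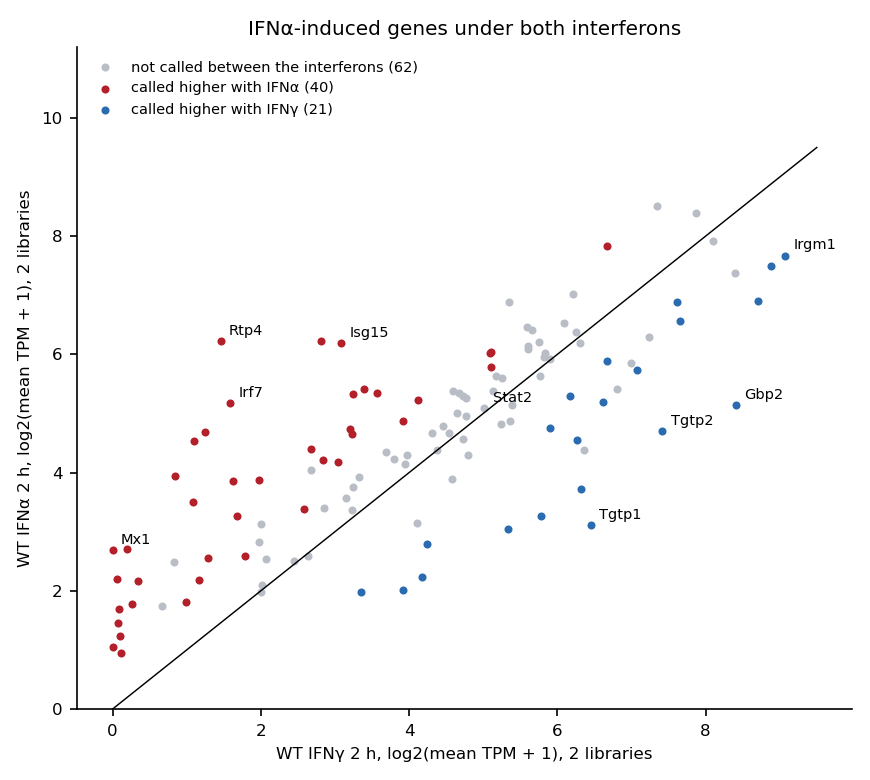
Mean level of the 123 genes that rose with IFNα, as log2(mean TPM + 1), in WT cells with IFNα (y axis) against WT cells with IFNγ (x axis), with 2 libraries each. The 40 genes higher with IFNα (red) lie above the line of equal levels, the 21 genes lower with IFNα (blue) lie below it, and the 62 genes not called between them (grey) lie around it.

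Many genes higher with IFNα than with IFNγ were of the antiviral families. They were all 5 tested IFIT genes, 5 of 9 genes of the OAS list (7 with the block), 5 of 17 restriction factors (6), 3 of 8 Schlafen genes (5) and 3 of 8 PYHIN genes (4). In these families 0 tested genes were lower. Rtp4 stood at 2.73 and 0.76 TPM with IFNγ, Irf7 at 2.00 and 2.00, Usp18 at 4.95 and 7.10 and Isg15 at 9.04 and 5.89, each far under its values with IFNα given above. Mx1 was listed at 0 in both IFNγ libraries. The differences between the interferons were 4.86 ± 0.25 for Rtp4 and 3.59 ± 0.21 for Irf7.

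The guanylate-binding protein and IRG families showed the opposite order. Of the guanylate-binding proteins 9 of 10 tested genes and of the IRGs 8 of 12 (9 with the block) were lower with IFNα than with IFNγ, and 0 were higher. Gbp2 had 334 and 344 TPM with IFNγ against 34.8 and 33.7 with IFNα (−3.27 ± 0.41), and Irgm1 597 and 476 against 209 and 197 (−1.39 ± 0.13). Tgtp2 reached 190 and 150 TPM with IFNγ (−2.72 ± 0.30). Of 15 tested genes of the GAS-type list 7 had risen with IFNα against media (8 with the block), and 5 were lower than with IFNγ (10 with the block), among them Irf1, at 532 and 407 TPM with IFNγ (−1.37 ± 0.17). Stat2 and Irf9 were closer between the interferons, with Stat2 at 26.9 and 35.8 TPM and Irf9 at 18.9 and 18.9 with IFNγ, neither called between the interferons (0.09 ± 0.26 and 0.35 ± 0.14).

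Some genes that differed between the interferons were not called against media. Of the 91 genes called between the interferons 30 were of this kind. Tubb3, a neuronal beta tubulin, had 1.76 and 1.93 TPM in media, 1.51 and 1.93 with IFNα and 59.5 and 39.6 with IFNγ (−4.19 ± 0.27 between the interferons). Irf8 had 328 and 351 TPM with IFNγ (−2.19 ± 0.14). Enc1, which encodes an actin-binding protein, had 3.94 and 2.12 TPM with IFNα and 26.47 and 15.02 with IFNγ.

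The promoter motifs of these genes are given as a description. An ISRE core stood in the promoter of 44 of the 94 called genes with a RefSeq entry (46.8%), against 357 of 9030 tested genes (3.95%) and 3.44% of all 32851 promoters in the table, each 250 bases before to 50 after a start site. A gene counts if any of its entries holds the motif, on either strand. Among called genes with a difference of at least 3 the share was 13 of 20 (65.0%), and among those with a difference under 1 it was 4 of 20. The GAS-type motif TTCNNNGAA, which reads the same on both strands, stood in 22 of the 94 (23.4%), against 758 of 9030 tested genes (8.39%) and 8.30% of all promoters. Split by the same sizes of difference, it stood in 6 of 20 genes at 3 or more and in 9 of 20 under 1. Of called genes higher with IFNα than with IFNγ, 20 of 33 had the ISRE core and 2 of 33 the GAS motif (6.06%). Of those lower with IFNα, 10 of 16 had the ISRE core and 9 of 16 the GAS motif (56.3%). The letters allow both motifs in 1 promoter, as in Tgtp2 and Gm12250 above, and neighbouring family members can share promoter sequence by duplication.

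Called genes often lay side by side. Of the 119 called genes with a position on GRCm38, 60 (50.4%) had another called gene within 100 kb, against 339 of 11211 tested genes (3.02%) with a called gene that near. Runs of 3 or more called genes, each within 100 kb of the next, numbered 10 and held 42 genes, and most were gene families. All 7 tested genes of the PYHIN run on chromosome 1 (173630859 to 174031755) rose, all 5 of the Ifit run on chromosome 19 (34550550 to 34662981), 6 of 9 in the IRG run on chromosome 11 (48865245 to 49096987) and 5 of 6 in the Oas run on chromosome 5 (120730333 to 120907544). Each run starts and ends at a called gene, so the share called inside it is high by definition and only a description. Family members beyond those ends are not counted. The run of Parp14, Dtx3l and Parp9 on chromosome 16 is of mixed families. Genes within a family share sequence, and RSEM divides reads among copies by estimate. Some neighbours overlap in position, as Gm6548 does with Eif2ak2 and D730005E14Rik with Apobec3, and need not be separate loci.

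The genes whose levels followed that of Rsad2 most closely over the 24 replicated libraries were Cmpk2 (Pearson r = 0.962), Gm14446 (0.945), I830012O16Rik (0.921), Ifit1 (0.904) and Ifit3 (0.901). These libraries include the same treatments in the knockout lines, so the values share the groups and carry no p.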

How the data were processed

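RNA sequencing values were taken from 1 table of TPM as deposited by the authors; per the submitters' processing notes it was made with bcl2fastq 2.20, Bowtie 0.12.2 and RSEM, on mm10 and GRCm38, whose roles are not stated. Entries that share a symbol were summed within the replicated and within the single libraries. The replicated libraries were fitted with limma 3.58.1 in R 4.3.3 on log2(TPM + 1) as 12 groups of 2 libraries, with trended moderation and 12 residual degrees of freedom. Genes needed at least 1 TPM in at least 2 of 24 libraries, and tests were two-sided, with Benjamini-Hochberg adjustment over 11842 genes within each comparison. Columns were matched to samples by the labels, and 0 columns had none. TPM holds no counts, so no count model was used, and the precision from depth cannot be given. The fit was tested on simulated data. Python 3.11.15 with pandas 2.3.3, numpy 2.4.6 and matplotlib 3.10.9 did the rest.

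Each replicate number carries a date-like code in the titles and was therefore treated as a pairing, but only in the fit with the block. The main fit held no term for it, so its calls and SEs leave the pairing out. Residuals of libraries with the same number had a correlation over 0.1 in 56 of 66 pairs of groups (median 0.233), but with r = −0.0133 between WT media and WT IFNα. Each code holds 1 library a group, so no test within a code was possible.

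Named genes were the 10 called genes per direction with the largest difference, a mean of 5 TPM or more where higher and no overlap; the 10 largest outside the lists; per list up to 3 called genes with the smallest p and the most abundant called one; 30 genes fixed by name; and genes lower only with the block. Genes outside this rule (Stat3, Irf8, Socs3, Tlr3, Nod1, H2-K1, H2-D1, Ciita, Snora78, Gm12338, Tubb3, Enc1, Aim2, Zbp1, Ddx60 and other members that complete a family) were chosen after their values were seen. The members, the 33 gene lists and the tests were chosen with earlier results of these data known. Some list members enter the counts but are not reported here by name. Alternatives were other pseudocounts, filters, scalings and variances, the block, the compared groups alone, a fold limit and leaving out each library.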

Additional observations from a re-analysis of the deposited data

How the results depend on the processing

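The count of 123 genes called with IFNα against media stayed within 96 to 167 with a pseudocount of 0.1 or 5, without a filter, with a 5 TPM mean filter, with robust variances, after quantile or TMM scaling, with a minimum difference of 1 and with the replicate block. It was 56 with the 2 compared groups alone, where fewer samples estimate the spread, and 87 to 104 on leaving out 1 library. All 123 stayed called under TMM, quantile scaling, robust variances and the block. Fewer of the 123 stayed called elsewhere, 118 at a pseudocount of 0.1, 118 without a filter, 116 at a pseudocount of 5 and 52 with the 2 compared groups alone. Lower genes numbered 0 in the fit without the block, 4 with it, 7 with no filter, 1 with the 2 groups alone and 0 to 2 without 1 library. Of the 65 named called genes 37 were called under every alternative that tested them, and 0 reversed. The block gave calls to Bst2, Cd274, Nlrc5 and the 4 lower genes among the named genes and changed no other call of theirs against media.

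Between the interferons 91 genes were called, 177 with the replicate block and 20 with the 2 groups alone, and 72 to 76 on leaving out 1 library. Those higher with IFNα numbered 42, or 72 with the block, 10 with the 2 groups alone and 24 at a mean of at least 5 TPM, and those lower 49, 105 and 10 in the first 3 of these fits. Of the called genes in the single pair, 83.9% were past 2-fold, 65.3% at a pseudocount of 5 and 50% past 4-fold. Why the block moves the counts was not tested. TPM hides depth, so low genes such as Mx1 and Rsad2 have an unknown counting error.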
